A study of Mus musculus with 15 samples.

Results

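The probes described here are the 2408 probes of a mouse whole-genome expression array whose only sequence name is a cDNA clone accession, the letters AK followed by digits, and not a RefSeq name. They were chosen by that name alone, among probes that were not array controls, so no measured value entered the choice. They make up 4.32% of the 55681 probes on the array and stand for 2366 clones, of which 38 had 2 probes and 2 had 3. The arrays measured RNA of mouse embryonic stem cells in 5 groups of 3 samples each. The groups were wild-type cells, Nat1-null cells, and 3 groups on the Nat1-null background: cells with a tet-inducible Map3k3 transgene grown without doxycycline (Dox), the same kind of cells with Dox, and cells with a tet-inducible EGFP transgene with Dox. Every group except the wild-type cells therefore lacks Nat1, and the cells with induced EGFP carry both the Dox and an unrelated transgene product. All cells were grown on gelatin-coated plates in the medium usual for such cells. The labels number the samples of a group from 1 to 3 and do not say whether they were separate cultures, so the p-values below measure the spread between these samples, which may be technical. They also do not say whether the null line or the transgenic lines were single clones, or whether the null line came from these wild-type cells.

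AK accessions are the names under which full-length cDNA clones, for mouse mostly those of the RIKEN collection, were entered in the sequence databases. Such clones were sampled across many tissues and stages, and the collection is known for its many long non-coding RNAs, rare isoforms and unspliced or intronic transcripts beside ordinary mRNAs. A probe that carries only such a name usually has no curated gene model behind it, so its clone accession is its identity here, and no gene name, position in the genome or probe sequence was assigned. None of the 2366 accessions was matched in the RefSeq gene table at hand. The names searched there were gene symbols, synonyms, locus tags and RefSeq and Ensembl names. Clone accessions need not be among these, so the lack of a match does not show that a clone has no gene model. Nat1, now called Eif4g2 and also known as Dap5, resembles a part of the translation initiation factor eIF4G and promotes translation of particular mRNAs; embryonic stem cells without it stay undifferentiated under conditions that normally start differentiation. Map3k3 is a kinase at the top of the MAP kinase cascades, and the comparison of Map3k3 with and without Dox asks what changes when it is supplied to cells without Nat1.

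The Eif4g2 probe was lower in all 4 groups without Nat1 than in wild-type cells, though not absent. Levels here are log2 signals relative to the 75th percentile of the array's probes, so that 0 is that percentile and a difference of 1 is a doubling. The level of this probe was 4.31 ± 0.15 (SD, n = 3) in wild-type cells and 1.71 ± 0.19 (SD, n = 3) in Nat1-null cells, and means lay between 1.56 and 1.62 in the other 3 groups. Whether it lies in the deleted part of the gene was not determined. The Map3k3 probe did not pass the test between cells with and without Dox (difference 0.18, adjusted p = 0.254), and the sources at hand do not say if it lies in the transgene's sequence. All 10 stem cell markers were above background on all 15 arrays, and their summed signal, in multiples of the array's 75th percentile, was 726 to 777 on wild-type arrays, 1289 to 1348 on Nat1-null arrays and 974 to 1023 with Map3k3 and Dox. Of these markers 7 rose in null cells and 4 fell with Map3k3. Markers of other cell types also differed between the groups: the summed signal of 11 fibroblast markers was 94.9 to 101 on wild-type arrays, 6.35 to 6.64 on Nat1-null arrays and 11.4 to 14.4 with Map3k3 and Dox, with Pdgfra, Lum and Postn not above background on any wild-type array. The sum of 10 trophectoderm markers was 175 to 180 in wild-type, 7.80 to 20.4 in Nat1-null and 338 to 402 with Map3k3 and Dox. That of 10 primitive endoderm markers was 24.7 to 27.9, 4.02 to 7.25 and 20.5 to 31.7. Bright markers weigh most in these sums, in wild-type cells Tagln (level 6.05), Krt18 (7.30) and Lamb1 (4.53) respectively. In null cells 7 fibroblast, 8 trophectoderm and 6 primitive endoderm markers fell and 0 rose. With Map3k3, 3, 9 and 9 rose against cells without Dox, and 1 fibroblast marker, Thy1, fell. Against wild-type cells, 7 primitive endoderm markers were higher with Map3k3 and 2, Dab2 and Lamb1, lower. In the same comparison 7 trophectoderm markers were higher and 0 lower, and 0 fibroblast markers were higher and 7 lower. Of the stem cell markers, 4 were higher and 1, Lin28a, lower. These sums moved with the same groups as the clones described below, and their part in those results was not tested. In such bulk samples, fewer cells of a type and less RNA per cell cannot be told apart.

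Most clone probes were dim. Of the 2408 probes, 948 (39.4%) were well above background on no array, 610 (25.3%) on all 15 arrays, and 986 (40.9%) reached that level throughout some group, on each of its 3 arrays, which was the condition for being tested. The same condition was met by 53.5% of all probes, 68.1% of RefSeq mRNA probes and 35.9% of probes named only by genome coordinates. The 986 probes belong to 971 clones; 1422 probes were not tested, and 474 of these were above background on some arrays. Through 1 group only, 137 of the 986 were admitted, among them 87 through the wild-type arrays and 45 through the tet-Map3k3 arrays without Dox. A probe admitted through the group where it is high is bound to look different between groups, so the counts below describe the tested probes and are given again for the 610 seen on all arrays.

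Detection of the clone probes varied with the position of an array on its slide. The share well above background was 41.3% to 41.5% on the wild-type arrays, 34.5% to 36.0% on the Nat1-null arrays, 39.5% to 42.3% with tet-Map3k3 without Dox, 35.5% to 38.8% with EGFP and 27.2% to 40.4% with Map3k3 and Dox. Arrays in row 1 of the slides lay between 38.8% and 42.3% and those in row 2 between 27.2% and 37.4%, and over all probes the rows gave 50.8% to 53.9% and 42.7% to 49.1%. The lowest share in both was that of replicate 2 of the Map3k3 cells with Dox. All wild-type arrays lay in row 1 and all Nat1-null arrays in row 2 of the same slide. From the arrays of this pair by themselves, genotype and row therefore cannot be told apart. The Map3k3 and EGFP cells with Dox have arrays in both rows, which lets row be fitted across all groups.

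**Figure D1:**
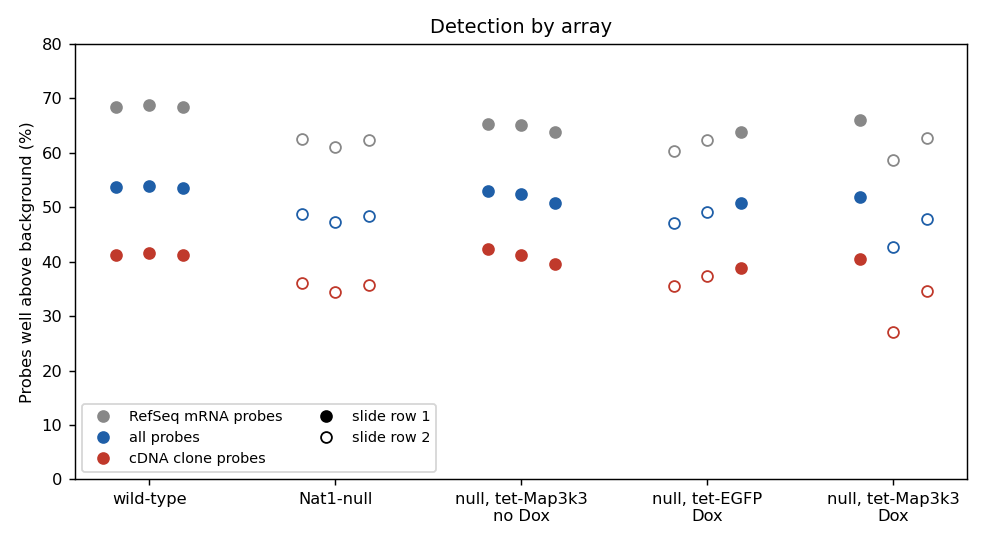
Share of probes well above background (y axis, percent) on each of the 15 arrays, by group (x axis), for the cDNA clone probes (red), all probes (blue) and RefSeq mRNA probes (grey); filled circles are arrays in slide row 1 and open circles arrays in row 2. The clone probes lie lowest of the 3 sets on every array, between 27.2% and 42.3%, and row 2 arrays lie under row 1 arrays.

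Where they were tested, the clone probes were also low in level. Their median level over the 15 arrays was -2.14, with quartiles of -3.40 and -0.34, against -0.37 for all tested probes and 0.49 for RefSeq mRNA probes. Only 213 of the 986 (21.6%) lay above the 75th percentile of their arrays, compared with 46.3% of all tested probes. Their spread between replicates was wider, with a median residual SD of 0.219 against 0.172, but at matched level it was close: 0.231 against 0.236 for levels of -3 to -2, and 0.135 against 0.112 above 0. A few clones were bright. The clone probe with the highest mean, AK146304, read 8.41, 8.44 and 8.50 in wild-type cells and between 8.35 and 8.70 on the other 12 arrays. AK136409, AK203298, AK158840 and AK146165 followed, and none of these 5 was called in any of the 6 comparisons.

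Loss of Nat1 was accompanied by changes in about the same share of clone probes as of all probes, with more rises than falls. A probe was called changed at an adjusted p under 0.05 with at least a 1.5-fold difference. By this rule 313 of the 986 clone probes (31.7%) were called between Nat1-null and wild-type cells, beside 33.4% of all 29782 tested probes. In the null cells 186 clone probes rose (18.9%, beside 16.9% of all probes) and 127 fell (12.9%, beside 16.5%), and the median difference was 0.20 for the clones and 0.12 for all probes. Of the 610 clone probes above background on all arrays, 161 were called, beside 28.9% of all such probes, and 121 rose and 40 fell, where 18.3% of all such probes rose and 10.6% fell. Arrays of the groups did not overlap for 583 clone probes (59.1%), beside 66.1% of all probes. With slide row as a term in the fit across all groups, 261 clone probes (26.5%) were called, beside 29.2% of all probes, 157 upward and 104 downward. With another background correction (normexp) the shares lay further apart, at 183 clone probes (18.6%) beside 24.6% of all probes, 114 upward and 69 downward.

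Where no array of the dimmer group was well above background, its signal is only an upper limit, and the fold is given as "at least", with each dim value raised to the lowest level well above background on its array. Of the 313 called probes, 83 have only such a bound and 7 allow no fold at all. Counted this way, 71 rises and 64 falls reached 2-fold, and 11 rises and 24 falls reached 4-fold. Among the called probes of the 610 seen on all arrays, 46 rises and 17 falls reached 2-fold. There 9 rises and 5 falls reached 4-fold, so only at 4-fold was the order the other way. The filter admitted 87 probes through the wild-type arrays alone, 53 of which were called, and 1 through the null arrays alone. Altogether 92 clone probes (3.82%, beside 3.78% of all probes) were above background on all 3 wild-type arrays and on no Nat1-null array. Of them, 33 (1.37% of the clone probes, beside 1.40% of all probes) were above background on no array outside the wild-type group. The reverse, all 3 null arrays and no wild-type array, was seen for 3 clone probes (0.125%, beside 0.241% of all probes). These, picked out by that pattern, were the probes of AK004111 and AK142477 and the dimmest of the 3 probes of AK167004. The wild-type arrays lie in slide row 1 and the null arrays in row 2, where fewer probes were detected on the whole, so genotype and row cannot be told apart in these detection counts.

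The strongest fall was that of AK077315. It read 2.41, 2.62 and 2.65 in wild-type cells and -6.21, -6.07 and -6.14 in Nat1-null cells, where no array was above background. The clone was thus above the 75th percentile in wild-type cells and not well above background in the null cells, at least 111-fold lower (fitted difference -8.70, SE 0.48, adjusted p = 3.98e-08). AK141773 had nearly the same profile, with 2.38, 2.41 and 2.42 in wild-type cells against -6.14, -5.97 and -6.05, at least 99.8-fold lower. AK003491 read 1.43, 1.44 and 1.51 against -6.12, -5.95 and -6.03, at least 51.9-fold lower. None of these 3 clones was above background on any array of the 4 groups without Nat1, and none was called between Map3k3 cells with and without Dox (adjusted p = 0.535, 0.743 and 0.179). Levels of different probes are not set against each other here, since their affinities differ.

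Of the other large falls, 4 left the clone below background with Map3k3 as well. AK033636 read -1.54, -1.58 and -1.34 in wild-type cells and between -5.49 and -5.01 in Nat1-null cells, at least 6.75-fold lower. It was not above background on any of the 12 arrays without Nat1. AK014513 showed the same pattern, at -1.95, -2.03 and -2.25 in wild-type cells and at least 4.47-fold lower in null cells. AK155468 (at least 3.62-fold lower) had no array above background in the null cells with or without Map3k3, and its call with Map3k3 (1.29, adjusted p = 0.0484) came with overlapping arrays and no level above background on either side. AK020112 was at least 3.68-fold lower in null cells, and 1 of its EGFP arrays stood apart at -1.99 beside -5.96 and -5.78. The other large falls in null cells, AK032756, AK043165, AK049648 and AK146072, were called in the opposite direction with Map3k3 and are described with that comparison.

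**Figure D2:**
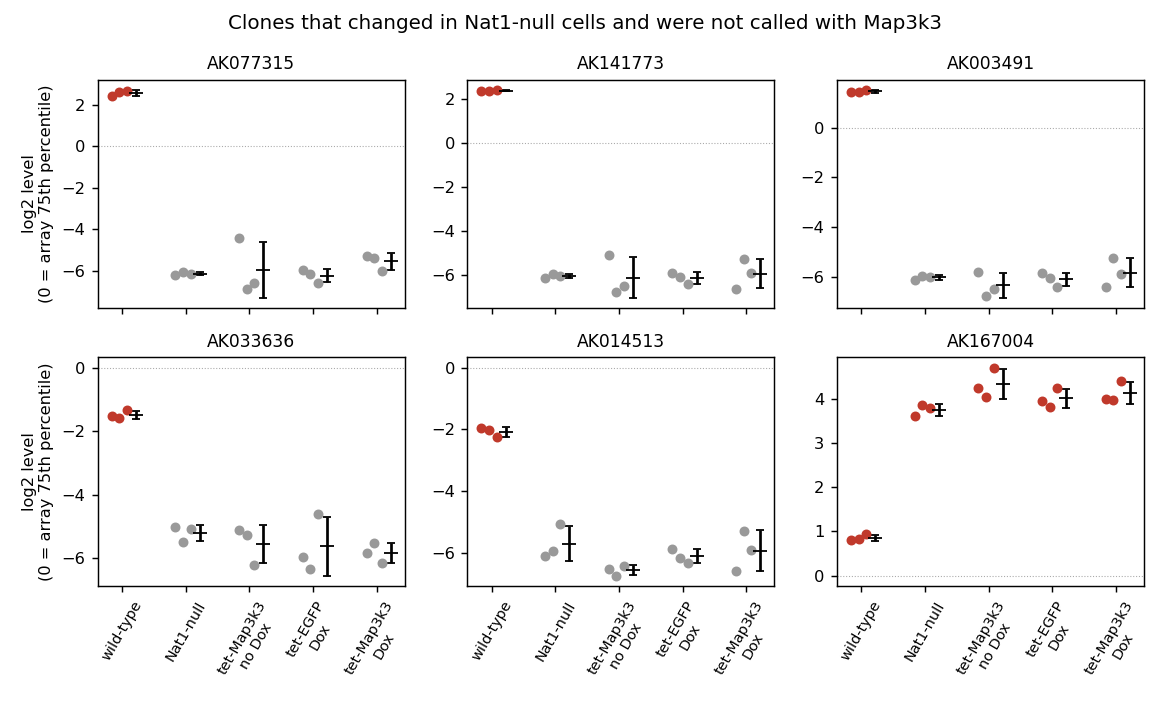
Levels of 6 clones on each array (y axis, log2 relative to the array's 75th percentile, which is the dotted line at 0) by group (x axis; tet-Map3k3 and tet-EGFP cells are on the Nat1-null background), with points for the 3 arrays and a bar for mean and SD; red marks groups with all 3 arrays well above background and grey groups with none. AK077315, AK141773, AK003491, AK033636 and AK014513 were above background only on the wild-type arrays, while AK167004 was high in all 4 groups without Nat1.

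The largest rises in Nat1-null cells were smaller than the largest falls named above. AK078659 read -4.18, -4.40 and -5.30 in wild-type cells, where 1 of 3 arrays was above background, and -1.60, -1.15 and -1.74 in null cells, 8.75-fold higher. AK167004 was measured on both sides, at 0.80, 0.82 and 0.93 against 3.60, 3.85 and 3.78. It rose 7.44-fold (difference 2.90, SE 0.17, adjusted p = 6.42e-08) and lay between 3.82 and 4.70 in the other 3 groups without Nat1. With Map3k3 and Dox it was not called against cells without Dox (-0.21, adjusted p = 0.378). AK042275 rose 6.28-fold, from -2.93, -3.53 and -3.43 to -0.50, -0.90 and -0.54. AK047634 rose 5.69-fold, and AK009785 rose 5.32-fold with the smallest SE of the 10 rises named here (difference 2.41, SE 0.10, adjusted p = 4.8e-09).

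The remaining rises of this list started from levels below background in wild-type cells. AK020250 was at least 2.61-fold higher in null cells with 2 of 3 null arrays above background, AK006404 at least 1.87-fold with 2 of 3, AK157795 at least 1.82-fold with 1 of 3, and AK053456 at least 1.75-fold with 1 of 3. AK145555 was called although no array of either group was above background, so no fold is given for it. These 5 clones were above background on all 3 arrays of the Map3k3 cells without Dox and on 2 or 3 of the EGFP arrays. AK145555 lost its call when the background was corrected by another method (0.48, under the fold minimum).

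Supplying Map3k3 was accompanied by more falls than rises among the clone probes. Between tet-Map3k3 cells with and without Dox, 161 of the 986 clone probes (16.3%) were called, beside 15.7% of all probes. Of these 43 rose (4.36%, beside 8.64% of all probes) and 118 fell (12.0%, beside 7.09%), so that 73.3% of the called clone probes fell against 45.1% of all called probes. Without the fold minimum falls were the more frequent in both, at 83.5% of the called clone probes and 63.3% of all called probes. Arrays of the groups did not overlap for 450 clone probes (45.6%), beside 47.4% of all probes. The median difference was -0.26 for clones and -0.13 for all probes. Among the 610 clone probes above background on all arrays, 81 were called, beside 12.4% of all such probes, and 18 rose and 63 fell, where 7.06% of all such probes rose and 5.36% fell.

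The counts of rises and falls varied with level and with the class of probe. Above the 75th percentile, 5 clone probes rose and 22 fell of 213, against 749 and 581 of 13782 for all probes. Between -1 and 0, 0 of 108 rose and 12 fell, against 292 and 239 of 2981 for all probes. Between -2 and -1, 3 of 150 rose and 14 fell, against 321 and 272 of 3182. From -3 to -2 the counts were 10 and 27 of 188 for clones and 328 and 394 of 3421 for all probes. From -4 to -3 all probes also fell more often than they rose (349 rises, 404 falls of 3647), and the clones had 14 rises and 31 falls of 189. Below -4 the clones had 11 and 12 of 138, against 533 and 223 of 2769 for all probes. Falls also outnumbered rises among probes named only by genome coordinates (164 rises, 718 falls, median -0.22), Ensembl transcripts (64, 99), RefSeq non-coding RNAs (54, 65) and the remaining names (74, 91), whereas RefSeq mRNA probes had 2173 rises and 1022 falls. Whether the splits of these classes or levels differ was not tested, since the probes are not replicates.

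**Figure D3:**
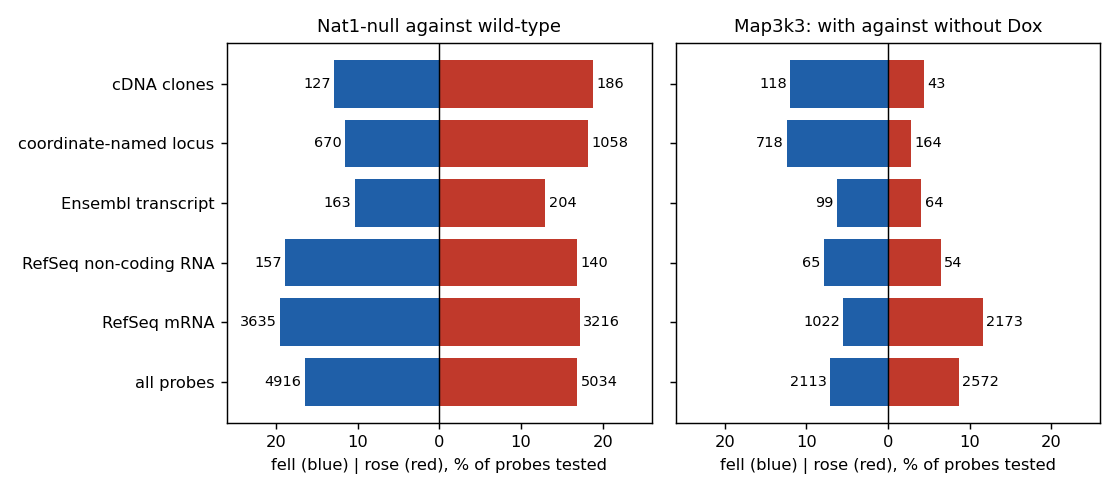
Share of tested probes that rose (red, to the right of 0) or fell (blue, to the left), in percent on the x axis, by class of probe name, in Nat1-null against wild-type cells (left panel) and in tet-Map3k3 cells with against without Dox (right panel); numbers beside the bars count probes. With Map3k3, 43 clone probes rose and 118 fell, and 2173 RefSeq mRNA probes rose and 1022 fell.

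The size of this split depends on the processing. Falls made up 62.5% of the called clone probes with a normexp background correction (24 rose, 40 fell, while 32.6% of all calls were falls) and 51.9% without the filter on dim probes (88 rose, 95 fell, 35.7% of all calls). Replicate 2 of the Map3k3 cells with Dox is the array with the lowest detection. Without it, 138 clone probes (14.0%) were called, beside 13.9% of all probes, 43 upward and 95 downward. With slide row as a term in the fit, 132 clone probes (13.4%) were called, beside 13.9% of all probes, 41 upward and 91 downward. Within slide row 1, which holds 1 array with Dox and the 3 without, 34 rose and 61 fell, with the lone array assumed to vary like those of the other groups. In each of these settings falls were a larger share among called clones than among all called probes.

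The largest rise with Map3k3 was that of AK032756. It read -3.57, -4.46 and -4.06 without Dox, with 2 of 3 arrays above background, and 1.51, 0.93 and 1.27 with Dox, 38.4-fold higher (difference 5.26, SE 0.24, adjusted p = 1.82e-08). AK043165 went from -4.93, -6.74 and -5.30, none above background, to -0.67, -1.32 and -1.05, at least 15.6-fold higher. AK166854, a bright feature in every group, went from 3.90, 3.33 and 4.08 to 7.72, 7.61 and 7.64, which is 14.8-fold (difference 3.89, SE 0.26, adjusted p = 6.1e-07). The arrays with Dox stood clear of those without for all 3 clones.

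Most of the other rises began at or near background. AK049648 rose 6.96-fold with 2 of 3 arrays above background without Dox, and AK145878 rose 6.19-fold with 1 of 3. AK032738, an exception, was above background on all 15 arrays and rose 5.06-fold, from -2.41, -2.55 and -2.17 to 0.21, -0.55 and 0.24. AK017909 was at least 4.65-fold higher and AK146072 at least 2.2-fold higher, the latter with 1 of 3 Dox arrays above background and without a call under the normexp correction (0.41). AK133004 was at least 3.37-fold higher, at -3.27, -2.66 and -3.75 with Dox against values of -6.97 to -6.66 without. It was not above background in wild-type or Nat1-null cells either, and 1 EGFP array read -3.48. AK047025 rests on 1 array: with Dox it read -1.38 in replicate 1 and -5.09 and -5.77 in the others, and its difference of 2.36 was 1.01 without that replicate. Its call was also lost in the fit of the pair alone (adjusted p = 0.172), with quantile normalization (adjusted p = 0.0764) and when any of the 3 arrays without Dox was left out (adjusted p = 0.08 to 0.0886).

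By measured folds and bounds, no called clone fell 4-fold or more with Map3k3, where 7 rose by that much. Of the 161 called probes, 17 have only a bound and 5 allow no fold, so a larger change of these is possible. Shares over all probes were not counted in this way. AK020250 went from -2.43, -3.30 and -2.15 to values not above background, at least 3.15-fold lower. AK049156 fell 3.85-fold, from -0.21, -0.82 and -0.24 to -2.12, -3.19 and -1.79. AK054031 fell 3.39-fold, from -1.76, -2.42 and -2.12 to -3.67, -4.12 and -3.80, with 1 of 3 Dox arrays above background. AK054031 was not called between null and wild-type cells (difference -0.41, adjusted p = 0.171) and was 3.00-fold below wild-type with Map3k3, so this fall led away from the wild-type level. AK009785 fell 2.99-fold, AK014724 2.69-fold and AK031919 2.55-fold, all with no overlap between the arrays.

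The other falls named by size ended below or close to background. AK037657 was at least 1.93-fold lower, AK053456 at least 1.87-fold and AK156599 at least 1.73-fold lower with Dox, and AK033136 fell 2.79-fold with 1 of 3 Dox arrays above background. Under the normexp correction AK053456, AK156599, AK033136 and AK037657 stayed lower but missed the fold minimum, with differences of -0.53, -0.45, -0.47 and -0.48. The fit with slide row as a term left AK020250 at an adjusted p of 0.0508 and AK033136 at 0.106. AK033136 was also not called without replicate 2 of the Dox cells (adjusted p = 0.0614). With 5 probes, of AK015815, AK020250, AK037657, AK051627 and AK089977, all arrays without Dox and all EGFP arrays were above background and no Map3k3 array with Dox was. These were picked out by that pattern, and its share over all probes is not given here.

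A part of the changes seen without Nat1 went the other way when Map3k3 was supplied. The comparisons of null with wild-type cells and of Map3k3 with and without Dox share no array. Called in both, in opposite directions, were 66 clone probes, 21.1% of the 313 and 41.0% of the 161. Over all probes this was the case for 7.74% of those tested, 23.2% and 49.2% of the respective lists. Of the clones, 26 fell without Nat1 and rose with Map3k3, which is 20.5% of the falls and 60.5% of the rises. Over all probes these shares were 32.3% and 61.7%. Another 40 rose and then fell, 21.5% of the rises and 33.9% of the falls, beside 14.2% and 33.9% over all probes. In the same direction in both were 12 clone probes. Of these 3 went upward, 1.61% of the rises without Nat1, beside 3.52% over all probes. The other 9 went downward, 7.09% of the falls without Nat1, beside 5.86% over all probes. Of the 66, 36 were not called between Map3k3 cells with Dox and wild-type cells, which does not show that their levels were equal. Among the 26, 10 were still below wild-type and 3 above it; among the 40, 17 were still above wild-type and 0 below. With slide row as a term in both fits 38 clone probes were called in both comparisons in opposite directions. Shares over all probes are not given here for the counts against wild-type or for these 38.

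**Figure D4:**
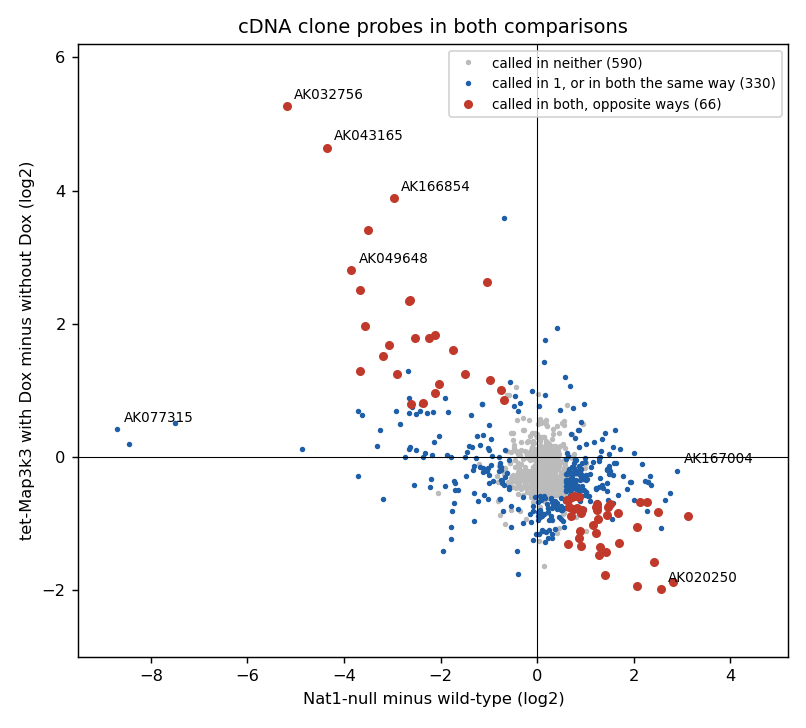
Each point is 1 of the 986 tested clone probes, with the difference of Nat1-null minus wild-type cells on the x axis and that of tet-Map3k3 cells with minus without Dox on the y axis, both log2; red points (66) were called in both comparisons in opposite ways, blue points (330) in 1 or in both the same way, and grey points (590) in neither. AK032756, AK043165 and AK166854 lie at the upper left, fallen without Nat1 and risen with Map3k3, while AK077315 lies far left near 0 on the y axis.

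Some clones of this group, among them AK032756 and AK043165, were not called against wild-type cells once Map3k3 was supplied. AK032756 read 1.51, 1.13 and 1.11 in wild-type cells and -4.16, -4.09 and -3.56 in null cells, 36.4-fold lower with 1 of 3 null arrays above background. With Map3k3 and Dox it differed from wild-type by -0.01 (SE 0.24, adjusted p = 0.967). AK043165 was at -1.17, -1.64 and -1.58 in wild-type cells and at least 6.84-fold lower in null cells, and with Map3k3 it differed from wild-type by 0.45 (SE 0.50). AK017909 went from -2.65, -2.71 and -2.77 in wild-type to at least 2.88-fold lower and back to -2.96, -2.25 and -3.07. AK017909 and AK043165 were the 2 clones above background on all wild-type arrays and all Map3k3 arrays with Dox and on none of the other 9 arrays. They were picked out by that pattern, and its share over all probes is not given here.

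AK032738 was 6.31-fold lower in null cells, from 0.12, -0.37 and -0.21 to -2.99, -2.99 and -2.45, and with Map3k3 it was within 0.12 (SE 0.24) of wild-type. Other clones differed more from their wild-type level. AK049648 was at least 12.4-fold lower in null cells, and with Map3k3 at -1.21, -0.97 and -1.69 it differed from wild-type by -0.69 (adjusted p = 0.0587). AK146072, at least 4.14-fold lower in null cells, remained 3.13-fold below wild-type with Map3k3. AK166854 passed its wild-type level: it was at 6.69, 6.58 and 6.56 in wild-type cells, 7.81-fold lower in null cells, and 2.07-fold above wild-type with Map3k3 (difference 1.05, SE 0.26, adjusted p = 0.00469). AK145878 likewise ended 2.37-fold above wild-type, from at least 1.79-fold below it in null cells.

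Other clones rose without Nat1 and fell with Map3k3. AK014724 read -2.40, -2.60 and -2.76 in wild-type cells, -1.06, -1.28 and -1.12 in null cells and -2.76, -2.59 and -2.64 with Map3k3, a 2.7-fold rise and a return to within -0.08 (SE 0.09) of wild-type. AK049156 was 4.2-fold higher in null cells and differed from wild-type by 0.07 (SE 0.31) with Map3k3. AK009785, at 1.66, 1.46 and 1.48 in wild-type and 4.10, 3.79 and 3.95 in null cells, came down to 2.46, 2.51 and 2.69 with Map3k3 and stayed 2.03-fold above wild-type. AK031919 was 2.45-fold higher in null cells and not called against wild-type with Map3k3 (0.33, adjusted p = 0.13). AK078659 and AK047634 fell by 1.85-fold and 1.78-fold with Map3k3 and remained 5.37-fold and 3.67-fold above wild-type.

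**Figure D5:**
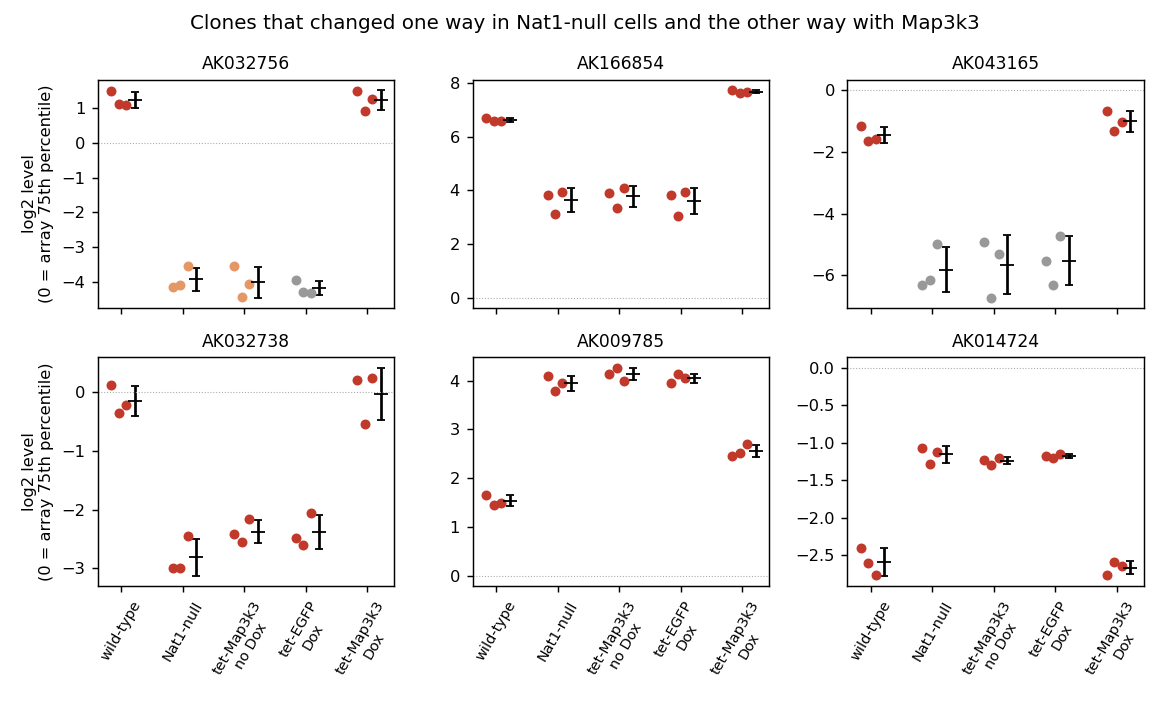
Levels of 6 clones on each array (y axis, log2 relative to the array's 75th percentile, dotted line at 0) by group (x axis; tet-Map3k3 and tet-EGFP cells are on the Nat1-null background), with points for the 3 arrays and a bar for mean and SD; red marks groups with all 3 arrays well above background, orange some and grey none. AK032756, AK166854, AK043165 and AK032738 were low in Nat1-null, uninduced and EGFP cells and high in wild-type cells and with Map3k3, while AK009785 and AK014724 were high in those 3 groups and lower in the others.

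Many changes were called in 1 of these comparisons and not in the other. Of the 127 falls without Nat1, 92 (72.4%, beside 61.9% of the falls over all probes) were not called with Map3k3, and of the 186 rises 143 (76.9%, beside 82.2%) were not. Of the 43 rises with Map3k3, 14 (32.6%, beside 31.4%) were not called between null and wild-type cells, and of the 118 falls 69 (58.5%, beside 52.4%) were not. A probe called in 1 comparison and not in the other is not thereby shown to differ between them, and that difference was not tested.

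Against cells with induced EGFP, falls again outnumbered rises with Map3k3. Here 151 clone probes were called, beside 15.8% of all probes: 45 rose (4.56%, beside 8.72%) and 106 fell (10.8%, beside 7.05%). Both comparisons use the same Map3k3 arrays with Dox, so their lists are not independent. AK032756 was at least 42-fold higher than with EGFP, AK166854 16.6-fold higher and AK043165 at least 11.1-fold higher. AK044029 was at least 5.56-fold higher, at -1.67, -1.90 and -2.19 against -3.97, -4.99 and -4.46. It was not above background in wild-type or Nat1-null cells, and it was also at least 6.13-fold above wild-type. AK007130 was at least 2.8-fold lower than with EGFP, where its 3 arrays lay apart at -1.12, -3.06 and -4.37. Its call was lost without EGFP replicate 1 (-1.14, adjusted p = 0.0616) and without Map3k3 replicate 2 (adjusted p = 0.0734), as well as in the fit of the pair alone (adjusted p = 0.122). Within row 1 of the slides 54 clone probes (5.48%) were called, beside 9.41% of all probes, and within row 2, 76 (7.71%), beside 9.32%. Row 1 holds 1 array of each of these groups and row 2 holds 2, and a lone array is assumed to vary like those of the other groups in its row. AK044029 was not called within row 1, nor AK020250 in either row, nor AK053456 and AK049156 within row 2.

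Set directly against wild-type cells, the Map3k3 cells with Dox still differed in 285 of the clone probes, beside 33.4% of all probes. Of these 146 rose (beside 16.1% of all probes) and 139 fell (beside 17.3%). AK077315, AK141773 and AK003491 remained at least 119-fold, 107-fold and 55.6-fold lower than in wild-type cells. AK167004 was 9.69-fold higher than in wild-type cells. AK049221 was at least 1.65-fold higher with 2 of 3 arrays above background, and under the normexp correction its difference of 0.55 missed the fold minimum. The wild-type and Map3k3 arrays with Dox lie on different slides, and with slide as a term in the fit 189 clone probes (19.2%) were called, beside 24.8% of all probes, 95 upward and 94 downward.

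Few probes separated the control groups without Nat1. Between EGFP cells with Dox and Nat1-null cells no clone probe was called by limma, with a smallest adjusted p of 0.274, and 0.00672% of all probes were called. An unadjusted p under 0.05 was reached by 102 of the 986 (10.3%, beside 7.45% of all probes). Between tet-Map3k3 cells without Dox and Nat1-null cells none was called either (smallest adjusted p = 0.055, 0% of all probes called). There 192 clone probes (19.5%, beside 13.6% of all probes) had an unadjusted p under 0.05. Same-numbered samples of these groups deviated together, and with the replicate number as a block 4 clone probes were called in the second comparison, 2 in each direction, and 0 in the first. The second pair is split completely by slide and also by slide row, so transgenic line, slide and row cannot be told apart there. A p that misses the threshold does not show that the groups are equal. The median difference of the clone probes was 0.08 and 0.11 in these comparisons, against -0.01 and -0.02 for all probes.

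Some clones were measured by several probes. Of the 40 such clones, 13 had more than 1 tested probe, 10 had 1 and 17 had none. Between null and wild-type cells all tested probes were called for 5 of the 13 clones and none for 8, with no opposite calls. AK167004 rose with all 3 of its probes, by differences of 1.44 to 2.90, and AK090034 fell with all 3, by -0.72 to -2.51. With Map3k3, 3 of the 13 clones had some but not all of their probes called, 10 had none, and again no clone had opposite calls. Probes of 1 clone could differ widely in level, by a median of 3.31 and, for AK139292, by 8.11 log2 units, so the level of a probe is not that of its transcript. Of the 42 clones named by the rule for the largest and brightest, AK167004 alone had several probes, so each of the others rests on 1 probe.

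Detection varied with the accession number, split here at gaps in the numbering. From AK002255 to AK021392 36.1% of 623 probes were tested, from AK028026 to AK054449 40.5% of 713, from AK075572 to AK090265 43.5% of 359 and from AK122315 to AK169782 42.9% of 676. The 37 probes from AK170335 to AK220451 stood higher at 70.3%. Falls outnumbered rises with Map3k3 in each of these blocks, with 8 rises and 19 falls in the first, 19 and 42 in the second, 3 and 23 in the third, 12 and 30 in the fourth and 1 and 4 in the last. Rises outnumbered falls without Nat1 in the first 4 blocks, with 47 and 24, 54 and 47, 25 and 21, and 57 and 32, and were equal in the last at 3 and 3.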

How the data were processed

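RNA of 15 samples was hybridised to 1-colour Agilent mouse arrays, 1 array a sample, with 5 groups of 3 taken from the sample labels. Per the file headers, the scans were read with Feature Extraction 11.5.1.1 (protocol GE1_1105_Oct12), which gives a background-corrected intensity for each spot and flags (scored 0 or 1) for spots well above background or outlying. The deposited table of the authors holds log2 values that match log2 intensity minus each array's 75th percentile (r = 1 on every array). The same values were recomputed here from the scanner files, with spots of a probe averaged. No spot was saturated, and 139 to 203 outlier spots an array were left out, so 1 clone probe lacks 1 array. The 75th percentile of the intensity was 494 to 614 and the lowest signal 4.33 to 12.7, and with 3 arrays a group their number limits the precision.

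Differences were tested with limma 3.58.1 (R 4.3.3) on the 29782 probes flagged well above background on each array of some group, in 1 fit over the 5 groups with 10 residual degrees of freedom, and p-values were adjusted by Benjamini and Hochberg over all of them. The script was tested on simulated data. The clones named were those called with no overlap of the arrays: the 10 largest rises and falls for null against wild-type and for Map3k3 with against without Dox, 5 each way in the other comparisons, the 5 with the highest mean, and the 5 each way with the largest opposite changes, 1 probe a clone. The rule, the members and the marker lists were chosen with earlier results of these data known. Samples with the same number deviated together (correlation of their deviations from the group means over 29749 probes) for Map3k3 with and without Dox (r = 0.138, 0.310 and 0.197), for EGFP and null cells (0.212, 0.528 and 0.323) and for uninduced Map3k3 and null cells (0.222, 0.575 and 0.347), where the pairing by number comes from the data alone. For Map3k3 and EGFP cells with Dox r was 0.093, 0.293 and 0.129, all positive. In the comparisons with wild-type cells r lay between -0.041 and 0.066. Alternatives were quantile normalization, normexp background correction (offset 50), other filters, no fold minimum, the authors' values, blocks for slide, slide row and replicate number, and leaving out each replicate. The spot mean was not used here, so normexp ran on the spot and background medians. Fits within a slide or slide row were added after seeing the data.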

Additional observations from a re-analysis of the deposited data

How the results depend on the processing

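Without a fold minimum the clone probes called rose to 489 (331 upward, 158 downward) for null against wild-type, 322 (53, 269) for Map3k3 with against without Dox, 303 (52, 251) against EGFP and 430 (236, 194) against wild-type, and 169 met the rule for opposite changes. The first 4 are 49.6%, 32.7%, 30.7% and 43.6% of the clone probes tested, beside 55.3%, 33.8%, 35.6% and 53.3% of all probes. With the normexp correction the same counts were 183, 64, 59, 164 and 28. The first 4 of these are 18.6%, 6.49%, 5.98% and 16.6% of the clone probes tested. Over all probes 24.6%, 9.92%, 9.71% and 25.6% were called with this correction, so the clone probes had the lower share in each. Over the 610 clone probes above background on all 15 arrays, which are fewer probes, the counts were 161, 81, 76, 147 and 36. The first 4 of these are 26.4%, 13.3%, 12.5% and 24.1%, beside 28.9%, 12.4%, 12.8% and 29.5% of all such probes. Within slide row 1, with fewer samples, 95 were called with against without Dox and 54 against EGFP, and within row 2, 76 against EGFP. Slide as a block gave 189 for Map3k3 against wild-type and 2 for EGFP against null cells, row as a block gave 38 opposite changes, and quantile normalization gave 1 call and the replicate block 4 for uninduced Map3k3 against null cells; the cause was not tested. The replicate block gave 318, 181, 166, 302 and 0 in the other comparisons and 79 opposite changes, all within 1.5 times of the counts reported, and it lost none of the 60 calls of named clones. The first 4 of these counts are 32.3%, 18.4%, 16.8% and 30.6% of the clone probes, beside 34.4%, 17.2%, 17.1% and 34.5% of all probes. Leaving out 1 replicate at a time gave 290 to 314 for null against wild-type, 131 to 180 with against without Dox, 120 to 157 against EGFP, 259 to 290 against wild-type, 0 to 0 in both control comparisons and 55 to 69 opposite changes. Shares over all probes are not given here for these ranges. Of 1012 values of the named differences under the alternatives, 980 kept direction and call, 32 kept direction and lost the call, and 0 changed direction. Signal over background limits the dimmest clones, for which folds are bounds.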
